A study of Homo sapiens with 6 samples.

Results

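The cytosolic ribosomal protein genes encode the proteins of the 80S ribosome, which translates nuclear-encoded mRNAs in the cytoplasm. They were chosen here by symbol alone: protein-coding genes named RPL or RPS plus a number (with A or X where it belongs to the name), RPLP0, RPLP1, RPLP2 and RPSA. Pseudogenes, the S6 kinases, Y-linked copies and paralogs with an L suffix were left out. The rule found 76 of the 17211 listed genes, 46 for the large 60S subunit and 30 for the small 40S subunit, and all 76 had enough signal to be tested. The group was put forward with its response to YAP silencing in view, so that response is given below as a description of these libraries.

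CAOV2, a human ovarian cancer cell line that the labels also call primary ovarian cancer cells, was transfected with siRNA against YAP (siYAP) or with a non-targeting siRNA (siNT). YAP is the transcriptional coactivator at the end of the Hippo pathway and is encoded by YAP1. Both groups received 100 pmol of siRNA with 6 µL of lipid reagent for 2 days and were collected at day 3, with 3 libraries per group that the titles call biological replicates. All libraries came from 1 cell line, and the siYAP and siNT reagents came from different suppliers, so silencing and reagent cannot be told apart.

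Each ribosome holds a single copy of almost every ribosomal protein, and the subunits are built in the nucleolus from rRNA and imported proteins. The mRNAs of these genes are among the most abundant in growing cells. Most start with a C followed by a run of pyrimidines, the 5′ terminal oligopyrimidine (TOP) motif, through which mTORC1 and the RNA-binding protein LARP1 control their translation. The genes also have many processed pseudogenes, so reads from a ribosomal protein mRNA often match several places in the genome.

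The bases around the annotated transcription start show the feature that the symbol rule did not use and that most of these genes have in common. Each stretch below runs from 15 bases before the start to 15 bases from the start on, 5′ to 3′ on the gene's own strand, from RefSeq on GRCh38.p14. The annotated start is base 16. Capitals mark 1 run per stretch, a C followed by at least 4 C or T bases: the run read from base 16 where it begins with such a C, even if pyrimidines also precede it, and otherwise the nearest such run within 10 bases. Other pyrimidine runs were left in lower case. RPL22 and RPL12 are shown because their mRNA was higher in siYAP, and RPL7A and RPSA because theirs was not called. RPL24, RPL38, RPS10, RPS21 and RPLP2 are shown because theirs was lower, and RPL27, RPS15 and RPS26 because theirs was lower as well although no such run begins at their start.
RPL22: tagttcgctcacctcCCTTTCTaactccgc
RPL12: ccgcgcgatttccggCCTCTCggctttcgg
RPL7A: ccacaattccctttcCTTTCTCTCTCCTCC
RPSA: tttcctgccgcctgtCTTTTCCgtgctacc
RPL24: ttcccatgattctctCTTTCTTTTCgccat
RPL38: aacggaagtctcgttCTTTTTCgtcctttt
RPS10: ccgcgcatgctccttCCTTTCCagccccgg
RPS21: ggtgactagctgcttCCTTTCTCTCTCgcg
RPLP2: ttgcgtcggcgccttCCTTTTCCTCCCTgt
RPL27: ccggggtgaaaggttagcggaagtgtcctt
RPS15: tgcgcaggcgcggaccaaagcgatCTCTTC
RPS26: gagacacataacctcgattttCTTCCgcca
The RPL22 stretch is chr1:6199581-6199610 on the minus strand and that of RPL12 chr9:127451392-127451421 on the minus strand. The RPL7A stretch is chr9:133348203-133348232 on the plus strand and that of RPSA chr3:39406705-39406734 on the plus strand. Those of RPL24, RPL38, RPS10, RPS21 and RPLP2 are chr3:101686704-101686733 on the minus strand, chr17:74203663-74203692 on the plus strand, chr6:34426055-34426084 on the minus strand, chr20:62387088-62387117 on the plus strand and chr11:809952-809981 on the plus strand. Those of RPL27, RPS15 and RPS26 are chr17:42998404-42998433 on the plus strand, chr19:1438381-1438410 on the plus strand and chr12:56041903-56041932 on the plus strand. In RPS15 and RPS26 a run begins a few bases after the annotated start, and in RPL27 none was found in the stretch.

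The RefSeq promoter table held 62 of the 76 genes. The missing entries included RPL23, RPL23A, RPL30, RPL37, RPL5, RPL7, RPL8, RPS15A, RPS2 and RPS20. A pyrimidine run of the kind above began exactly at an annotated start in 46 of the 62 genes (74.2%), against 5.14% of all 27305 genes in the table and 7.17% of the 11716 of them that were tested. Within 10 bases of a start a run was found in 57 of the 62 (91.9%), against 38.4% of all genes in the table and 41.7% of those tested. The 5 genes with no run that near were RPL17, RPL27, RPL6, RPS29 and RPS4X.

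In the 300 bases from 250 before to 50 after the start, read on both strands, the E-box CACGTG was present in 6.45% of the 62 genes, against 8.77% of all genes in the table and 12.2% of the 11716 tested. GGAATG, a motif of the TEAD factors that carry YAP on DNA, was present in 5 of the 62 (8.06%), against 16.7% of all genes and 15% of those tested, and these 5 were RPL10, RPL38, RPL6, RPL7A and RPS27A. CCGGAAG, an ETS-type motif, was present in 35.5% of the 62, against 12.2% of all and 20.9% of tested genes. AAGATGGC, a YY1-type motif, was present in 9.68%, against 3.52% and 6.06%, and the TATAAA box in 8.06%, against 14% and 8.82%. These shares describe letters in a window and not binding.

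Whole reads recovered from the deposited values summed to between 25478595 and 31790340 per library, so counting error was small for all but the lowest of these genes. YAP1, the targeted gene, had 6221, 5801 and 5955 normalized counts in siNT and 278, 327 and 294 in siYAP, a log2 fold change of −4.32 (SE 0.059) with an adjusted p of 1.00e-22 by limma with Benjamini-Hochberg adjustment. All 6 epithelial markers were listed, with a summed normalized count of 96329.6 to 104749 in siNT and 72574 to 79019 in siYAP. Of the 4 ovarian carcinoma markers, WT1 was not in the table and PAX8, MSLN and MUC16 together had only 30.4 to 59.9 in siNT and 34.4 to 41.8 in siYAP, so the defining markers of the labelled tissue were near the floor. Of 5 fibroblast genes 4 were listed, with a sum of 4012 to 4662 in siNT and 9916 to 10523 in siYAP, and DCN was not in the table. Of 5 immune genes 2 were listed, LYZ and CD14, with a sum of 76.4 to 89.8 in siNT and 81.9 to 103 in siYAP, and none of the endothelial or red cell genes was listed. The part of these shifts in the results below was not tested.

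Ribosomal protein mRNAs were lower after siYAP across both subunits, by a modest amount per gene. The 76 genes together made up 4.29%, 4.49% and 4.38% of all normalized counts in siNT and 4.06%, 3.90% and 3.75% in siYAP, and the groups did not overlap. The mean share was 4.38% ± 0.0999 (SD, n = 3) in siNT and 3.90% ± 0.155 (SD, n = 3) in siYAP, and the summed normalized count in siYAP was 83.8% of that in siNT. Both subunits had lower shares, with the 60S genes at 2.67% to 2.78% in siNT and 2.33% to 2.53% in siYAP. The 40S genes stood at 1.62% to 1.70% in siNT and 1.42% to 1.53% in siYAP. In bulk RNA, fewer cells of a type and less RNA per cell cannot be told apart. Mitochondrially encoded transcripts made up 2.85% to 3.40% of siNT and 3.20% to 4.14% of siYAP libraries, and their part in the result was not tested.

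**Figure D1:**
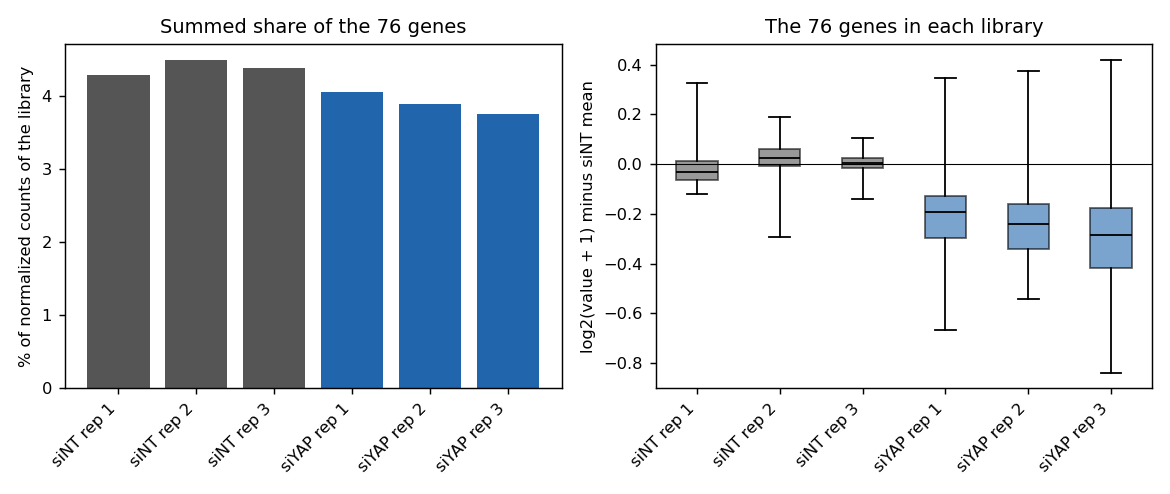
The left panel plots the summed share of the 76 cytosolic ribosomal protein genes, as a percentage of the normalized counts of each library, with 1 bar per library (grey siNT, blue siYAP). The right panel plots, for each library, the 76 genes' log2(value + 1) minus the gene's siNT mean (line, median; box, quartiles; whiskers, lowest and highest gene). The siNT bars lie between 4.29% and 4.49% and the siYAP bars between 3.75% and 4.06%, and all 3 siYAP medians lie below 0.

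By limma across the whole table (adjusted p under 0.05), 59 of the 76 genes were called lower and 3 higher, and 14 were not called. Of all 17200 genes tested 28.1% were called lower and 28.6% higher, or 56.8% in either direction. Because the group was put forward from this contrast, nothing is read from the members' share. The median log2 fold change of the 76 genes was −0.25, against 0.0036 over all genes tested, and the values ran from −0.66 (RPS10) to 0.38 (RPL22). The shift was small per gene: none changed by 2-fold or more, and the genes called lower had siYAP means at 63.1% to 90.3% of siNT. All 3 siYAP libraries lay below all 3 siNT libraries for 62 members (30.6% of all genes tested) and above for 4 (30.9%), and the groups overlapped for 10. When libraries were scaled to equal totals in place of the authors' size factors, the median over all genes tested moved to 0.090 and that of the 76 genes to −0.17, with 51 called lower (21.5% of all genes tested) and 5 higher (35.2%). Without siNT replicate 1, 61 were called lower (28.4% of all genes tested) and 5 higher (28.8%). Under equal totals 62.1% of all calls were higher, against 50.4% as deposited.

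Genes of both subunits were called lower. Of the 46 60S genes 34 were called lower, 2 higher and 10 not called, with a median log2 fold change of −0.25. Of the 30 40S genes 25 were called lower, 1 higher and 4 not called, with a median of −0.25. Of all genes tested 28.1% were called lower and 28.6% higher, and these shares stand beside each later count of calls by this fit. The difference between the subunits was not tested.

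**Figure D2:**
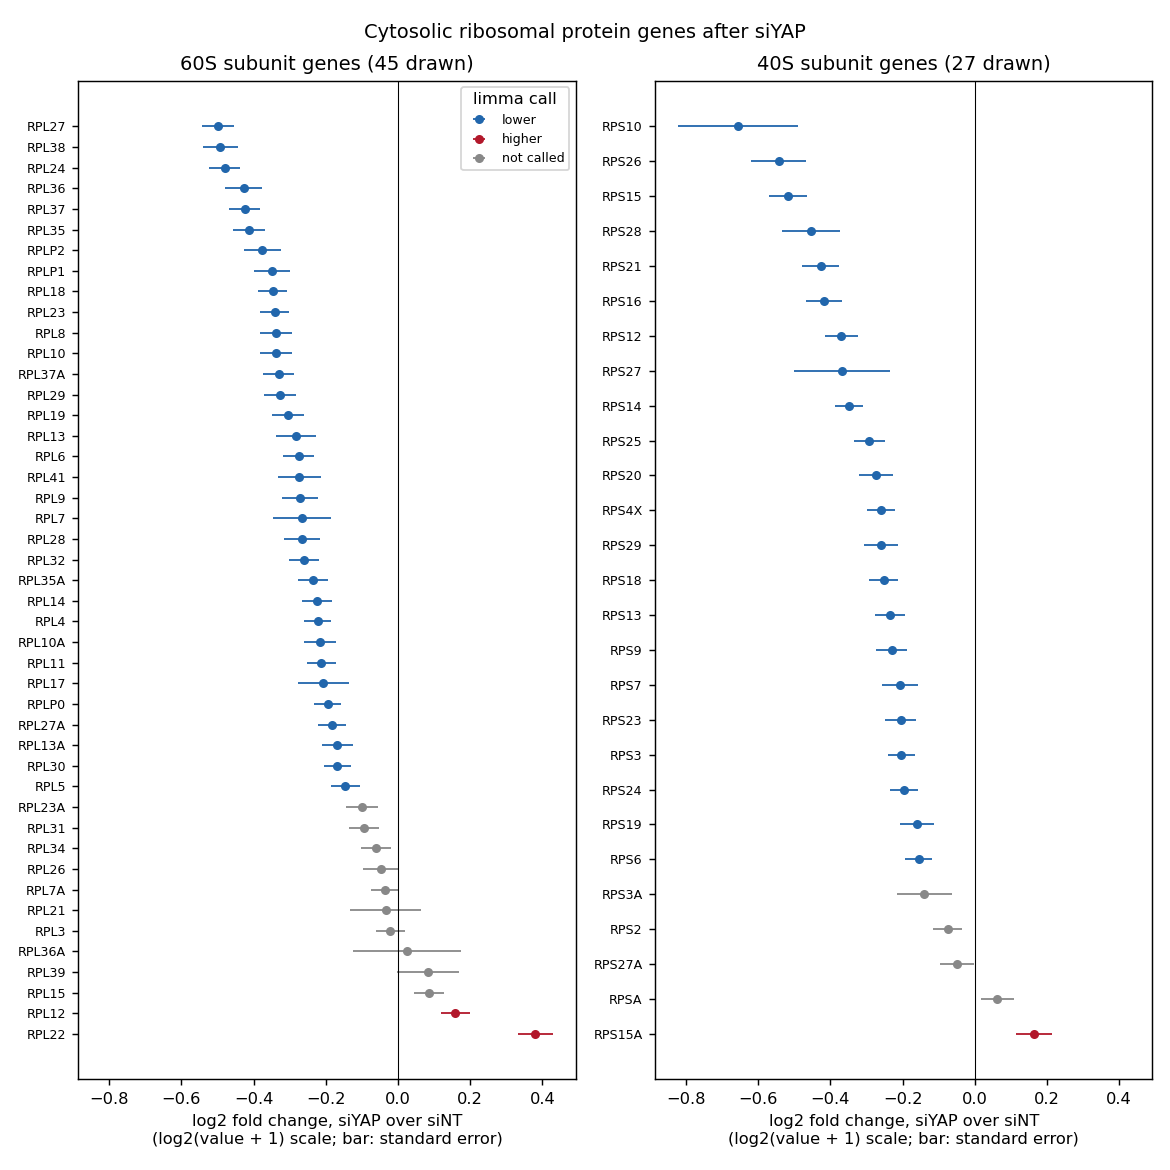
The horizontal axis is the log2 fold change of each cytosolic ribosomal protein gene, siYAP over siNT, on the log2(value + 1) scale, with its standard error as a bar (3 libraries per group). Genes of the 60S subunit are on the left and of the 40S subunit on the right, coloured by their limma call. The plot draws 72 of the 76 genes, of which 65 lie below 0, and the ends are RPS10 at −0.66 and RPL22 at 0.38.

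Among the 60S genes, the lowest fold changes were those of RPL27, RPL38, RPL24 and RPL36. RPL27 (chr17:42998273-43002959; gene bounds here and below are those of GENCODE 29 on GRCh38), a 60S structural protein, had 18569, 19592 and 19862 normalized counts in siNT and 14484, 13719.5 and 12882 in siYAP. Its siYAP mean was 70.8% of siNT, a log2 fold change of −0.50 (SE 0.045), and the lowest siNT library was above the highest siYAP library. RPL38 (chr17:74203582-74210655), a small 60S protein known for its effect on the translation of Hox mRNAs in mice, had 12351, 13645 and 13271 normalized counts in siNT and 9952, 9196 and 8770.4 in siYAP. All 3 siYAP libraries were below siNT, with a log2 fold change of −0.49 (SE 0.049). RPL24 (chr3:101681091-101686782), which joins the 60S subunit late, in the cytoplasm, had 10302, 10126 and 10391 normalized counts in siNT and 7712, 7353 and 7049 in siYAP. The siNT libraries lay close together and the siYAP libraries well below them, with a log2 fold change of −0.48 (SE 0.043). RPL36 (chr19:5674947-5691876), another small 60S protein, had 16308, 18282 and 18379 normalized counts in siNT and 14055, 13137 and 12202 in siYAP. It overlaps 3 listed genes in the annotation, HSD11B1L on the same strand and MICOS13 and LONP1 on the other, and its log2 fold change was −0.43 (SE 0.052).

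The 3 genes of the P-stalk, the arm of the 60S subunit that recruits elongation factors, all fell. RPLP2 had 24135, 27275 and 27077 normalized counts in siNT and 21672, 20253 and 18589 in siYAP, at −0.38 on the log2 scale. RPLP1 had 30048, 34180.1 and 32566 normalized counts in siNT and 27425, 24553 and 24093 in siYAP, at −0.35. RPLP0, the stalk base to which both P1 and P2 bind, had 37558, 37593 and 38461 normalized counts in siNT and 34513, 32563 and 32199.5 in siYAP, at −0.20. For each of the 3 the groups did not overlap, and the fold change of RPLP0 was the smallest of them. RPL12, which joins RPLP0 at the stalk base, was higher in siYAP and is described below.

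RPL5 and RPL11 form the 5S particle with 5S rRNA and are known for binding MDM2 when ribosome assembly is disturbed. RPL5 had 24510.1, 22913 and 22533 normalized counts in siNT and 21272, 20882 and 21015 in siYAP, a log2 fold change of −0.15 (SE 0.040) and the smallest of the called falls. RPL11 had 28289, 29137 and 28751 normalized counts in siNT and 25979, 24304 and 24151 in siYAP, at −0.21 (SE 0.039). Neither gene's groups overlapped, but RPL5 was no longer called with equal totals or with limma without its variance trend.

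Of a short list of 4 genes whose proteins lie at or near the peptide exit tunnel, 2 fell, 1 rose and 1 was not called. RPL4, whose long loop reaches into the tunnel, had 37275, 37652 and 37537 normalized counts in siNT and 32882, 32181 and 31353 in siYAP, at −0.22 (SE 0.037). RPL17 had 555, 636 and 588 normalized counts in siNT and 540.1, 494 and 505 in siYAP, at −0.21 (SE 0.071), and was not called without siNT replicate 2 (−0.16), without siYAP replicate 2 (−0.18), with equal totals or without the trend. RPL39, a very small tunnel protein, had 536, 420.1 and 419 normalized counts in siNT and 472, 468 and 508 in siYAP, with overlapping groups and a log2 fold change of 0.083 (SE 0.087) that was not called, although it was called higher without siNT replicate 1 (0.20). RPL22, at the rim of the exit, rose and is described below. Other proteins near the exit were not in that list: RPL35, at −0.41 (SE 0.045), and RPL19, at −0.30 (SE 0.043), were called lower, and RPL23A, RPL26 and RPL31, given below, were not called.

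Among the 40S genes, RPS10, RPS26, RPS15 and RPS28 had the lowest fold changes, and 3 of these 4 have low counts. RPS10 (chr6:34417454-34426125), a 40S protein beside the mRNA entry that is ubiquitinated on collided ribosomes, had 72.3, 81.2 and 68.9 normalized counts in siNT and 46.2, 53.3 and 40.9 in siYAP. The groups did not overlap, and its log2 fold change of −0.66 (SE 0.17) had the widest standard error of the 76 genes. RPS26 (chr12:56041351-56044697), which contacts the mRNA just upstream of the start codon, had 542, 478 and 511 normalized counts in siNT and 368, 351 and 330.0 in siYAP. The groups did not overlap and the log2 fold change was −0.54 (SE 0.077). RPS15 (chr19:1438358-1440494), a protein of the 40S head near the decoding site, had 10792, 12592 and 11313 normalized counts in siNT and 8622, 7931 and 7667 in siYAP, at −0.52 (SE 0.053). RPS15 has far higher counts than the other members of this quartet, and its groups were also apart. RPS28 (chr19:8321158-8323340), another 40S protein, had 407, 391 and 446 normalized counts in siNT and 304, 311 and 291 in siYAP, at −0.45 (SE 0.080).

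A short list drawn up for the mRNA channel and the 40S head had 2 genes of 4 lower and 2 not called. It does not stand for the head as a whole, since RPSA is a platform protein. RPS10, beside the mRNA entry, and RPS15, of the head, both given above, were not in that list and were called lower. RPS3, which guards the mRNA entry, had 47185, 48681 and 48135 normalized counts in siNT and 43057, 41172 and 40822 in siYAP, at −0.20 (SE 0.037). RPS6, the 40S protein that S6 kinases phosphorylate, had 40789.9, 39385 and 40125 normalized counts in siNT and 36437, 35985 and 35576 in siYAP, at −0.16 (SE 0.036). The groups of both were apart although the changes were small, and RPS6 was not called with equal totals. RPS2, also at the mRNA entry, had 10782, 11181 and 11150.0 normalized counts in siNT and 10734, 10554 and 10145 in siYAP, at −0.075 (SE 0.041), with no overlap between groups but no call. Without siNT replicate 1, RPS2 was called lower (−0.092). RPSA, the platform protein also known as the laminin receptor precursor, had 3597, 3357 and 3421 normalized counts in siNT and 3676, 3634 and 3522 in siYAP, at 0.063 (SE 0.045), with overlapping groups and no call, although it was called higher with equal totals (0.15).

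Of the 7 genes measured here from a short list of those mutated in Diamond-Blackfan anaemia, a congenital failure of red cell production, 6 fell and 1 was not called. Of all genes tested 28.1% were called lower. The list does not hold every gene reported for the disease, so nothing is read from its count. RPS19, the gene most often mutated, had 34919, 38566 and 37784 normalized counts in siNT and 35569, 32476 and 31609 in siYAP. Its groups overlapped, because siYAP replicate 1 was above siNT replicate 1, and its log2 fold change of −0.16 (SE 0.046) was not called with equal totals or without the trend. RPS24 had 25648, 25655 and 24642 normalized counts in siNT and 22488, 21809 and 22010.1 in siYAP, at −0.20 (SE 0.038). RPS7 had 2556, 2758 and 2534 normalized counts in siNT and 2324, 2321 and 2153 in siYAP, at −0.21 (SE 0.050). RPL35A had 12465, 11861 and 11787 normalized counts in siNT and 10448, 10311 and 9897 in siYAP, at −0.24 (SE 0.041). These 3 genes had groups apart and changes near the median of the 76. RPS10 and RPS26 were the 2 lowest of all members. RPL26, which overlapped between groups, had 7868, 6833 and 7167 normalized counts in siNT and 6835, 7151 and 7149 in siYAP, at −0.047 (SE 0.049).

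RPS27A, whose protein is made as a fusion with ubiquitin, had 6257, 5875 and 5556 normalized counts in siNT and 5536, 5746 and 5801 in siYAP, with overlapping groups and a log2 fold change of −0.049 (SE 0.047) that was not called. FAU and RACK1, ribosome components that the symbol rule leaves out, both fell. FAU, a fusion of a ubiquitin-like protein with a 40S protein, had 9896, 10659 and 10409 normalized counts in siNT and 8278, 8138 and 7667 in siYAP, at −0.36 (SE 0.044) and an adjusted p of 3.15e-07 by limma with Benjamini-Hochberg adjustment. RACK1, the scaffold protein on the 40S head, had 57866, 61311 and 59991 normalized counts in siNT and 42993, 41945 and 40340.3 in siYAP, at −0.52 (SE 0.038) and an adjusted p of 1.37e-10 by limma. The groups of both were apart.

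The 3 genes that rose were RPL22, RPS15A and RPL12, and all 3 share much of their coding sequence with other annotated genes. RPL22 (chr1:6185020-6209389), a 60S protein that also binds other RNAs, had 2761, 2635 and 2471 normalized counts in siNT and 3335, 3395 and 3506 in siYAP. Every siYAP library was above every siNT library, the siYAP mean was 130.1% of siNT, and the log2 fold change was 0.38 (SE 0.049). It overlaps RNF207 on the other strand, which had a log2 fold change of 0.11 (SE 0.061) and was not called. The pseudogenes RPL22P1 and RPL22P7, which share its sequence, were near the floor, with means of 4.72 and 6.93 normalized counts in siNT.

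RPS15A (chr16:18781295-18790383), a protein of the 40S body, had 1434, 1385 and 1446 normalized counts in siNT and 1603, 1601 and 1578 in siYAP. The groups were apart, with a siYAP mean 112% of siNT and a log2 fold change of 0.17 (SE 0.049). RPL12 (chr9:127447674-127451405), of the stalk base, had 7478, 7738 and 7721 normalized counts in siNT and 8691, 8553 and 8365 in siYAP. The groups were again apart, with a siYAP mean 112% of siNT and a log2 fold change of 0.16 (SE 0.041). Coding 50-base words of RPL12 also occur in NBEAL1, an unrelated gene that had 623, 525 and 488 normalized counts in siNT and 571, 676 and 699 in siYAP and a log2 fold change of 0.25 (SE 0.087). The part of NBEAL1 reads in the RPL12 value was not tested.

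Of the 14 genes that were not called, the 4 nearest to 0 were RPL3, RPL36A, RPL21 and RPL7A. RPL3, which reaches the peptidyl transferase centre, had 34036, 37089 and 35723 normalized counts in siNT and 36311, 34779 and 34156 in siYAP, at −0.021 (SE 0.040). RPL3 was abundant and its groups overlapped, with a siYAP mean 98.5% of siNT. RPL7A had 10539, 10869 and 10713 normalized counts in siNT and 10529, 10534 and 10267 in siYAP, at −0.036 (SE 0.039), with the siYAP libraries just below siNT. RPL21 had 225, 222 and 193 normalized counts in siNT and 217, 209 and 199 in siYAP, at −0.034 (SE 0.098). RPL36A had 132, 85.5 and 103 normalized counts in siNT and 101, 119 and 101 in siYAP, at 0.025 (SE 0.15). The last 2 have low counts, and their standard errors are wide enough to hold falls like those of other members. RPL15 had 7836, 7429 and 7480.1 normalized counts in siNT and 8035, 8029 and 8069 in siYAP, and was above siNT in every library at 0.086 (SE 0.041). It was called higher only without siNT replicate 1 (0.11) or with upper-quartile or equal-total scaling. The other genes not called and not yet given were RPS3A at −0.14 (SE 0.077), RPL23A at −0.10 (SE 0.045), RPL31 at −0.095 (SE 0.041) and RPL34 at −0.062 (SE 0.042). RPL31 was called lower without siNT replicate 1 (−0.11) or without siYAP replicate 1 (−0.13).

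Levels differed far more between these genes than between the groups. Per kilobase of coding sequence, the mean normalized count over the 6 libraries ran from 122 for RPS10 to 159360.0 for RPL30, a 1305-fold range. The highest levels per kilobase were those of RPL30, RPL37A (126205), RPL37 (104537) and RPL8 (96811). RPL30, a small 60S protein, had 58292, 57841 and 58359 normalized counts in siNT and 53653, 52012 and 49718 in siYAP, a log2 fold change of −0.17 (SE 0.037) that was not called with equal totals (−0.081). RPL37, a zinc-binding 60S protein, had 34356, 35255 and 34939 normalized counts in siNT and 27231, 26507 and 24232 in siYAP, at −0.42 (SE 0.042), and RPL37A, another such protein, was at −0.33 (SE 0.043). RPL8, of the peptidyl transferase region, had 78428, 86103 and 85573 normalized counts in siNT and 70119.9, 65301 and 62325 in siYAP, the largest counts of the 76 genes, at −0.34 (SE 0.044). The 4 highest all fell, with no overlap between the groups of any of them.

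The lowest levels per kilobase were those of RPS10, RPL36A (336), RPL21 (439) and RPL7 (462). RPL7, a 60S protein, had 357, 378 and 392 normalized counts in siNT and 302, 329.7 and 305 in siYAP, at −0.27 (SE 0.080), and was not called with equal totals (−0.18). A ribosome holds these proteins in about equal number, whereas the deposited values set them far apart. The level followed how much of the coding sequence is shared. For each gene the share of its coding 50-base words that also occur in another annotated gene was counted, and this share had a Spearman correlation of −0.84 with the level per kilobase over the 76 genes, which share the same libraries.

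The 14 genes with under 10% of their words shared had levels of 33721 (RPL35A) to 159360.0 (RPL30) per kilobase, a 4.73-fold range. The 14 genes with 90% or more shared had levels of 122 (RPS10) to 14246 (RPL41), a 117-fold range. All words were shared for 9 genes: RPL17, RPL21, RPL36A, RPL39, RPL41, RPS10, RPS26, RPS27 and RPS28. For 3 of them, RPS10, RPL36A and RPL17, an annotated readthrough gene holds their exons, such as RPS10-NUDT3. How reads that match several genes were counted is not given in the sources used here, and its part in these levels was not tested. Values of the genes that share most of their sequence are therefore uncertain, which includes RPS10, RPS26, RPS28 and RPL22.

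**Figure D3:**
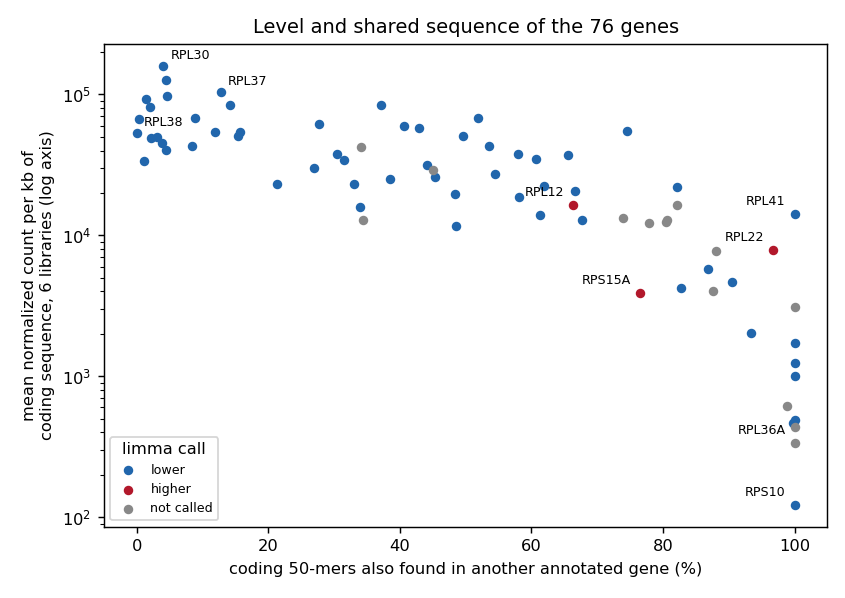
Each point is 1 of the 76 cytosolic ribosomal protein genes. The horizontal axis is the percentage of its coding 50-base words also found in another annotated gene, and the vertical axis, on a log scale, is its mean normalized count per kilobase of coding sequence over 6 libraries. Levels fall from 159360.0 for RPL30 at the left to 122 for RPS10 at the right, and the 3 red points called higher, RPL12, RPS15A and RPL22, all lie above 50% shared.

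The direction was the most uniform among the genes with the least shared sequence. All 14 with under 10% shared were called lower, with log2 fold changes from −0.50 to −0.16 and a median of −0.34. Of the 38 genes with under 50% shared, 35 were called lower, none higher, and RPL31, RPL34 and RPL3 were not called. Of the 38 with 50% or more, 24 were called lower, 3 higher and 11 not called. Over all genes tested the shares were 28.1% lower and 28.6% higher. Over the 76 genes the Spearman correlation of the shared percentage with the log2 fold change was 0.29. The medians did not rise steadily with sharing. They were −0.25 at 10% to under 50% shared, −0.20 at 50% to under 90% and −0.27 at 90% or more. Genes with little shared sequence also had the higher levels, and the part of level in the calls was not tested. In the annotation 36 of the 76 overlap another listed gene, 31 of them on the other strand. Whether the counting used strand is not given in the sources used here.

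Base content moved with the size of the fall. The Spearman correlation of the log2 fold change with the GC percentage of the coding sequence was −0.40 over the 76 genes, that with coding length 0.31 and that with the level per kilobase −0.29. The 25 genes with the lowest GC (42.5% to 47.9%) had a median log2 fold change of −0.17, with 15 called lower and 2 higher. The 25 in the middle (47.9% to 54.1%) had a median of −0.25 and 21 called lower, and the 26 with the highest GC (54.2% to 63.0%) a median of −0.33 and 23 called lower. Among all genes tested 28.1% were called lower and 28.6% higher. Other coding genes in the same GC ranges had medians of 0.076, −0.0016 and −0.041, each above that of the ribosomal protein genes in its range. By level per kilobase the gap differed. The 25 genes with the lowest levels had a median log2 fold change of −0.14. The 9843 other coding genes within the same range of levels, 122 to 13250 per kilobase, had −0.023. Other genes were taken by range only, so levels inside a range were not matched. The 25 in the middle had −0.25 against −0.19 for 185 others, and the 26 with the highest levels −0.31 against −0.16 for 38 others. The part of GC content and of level in the fold changes was not tested.

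**Figure D4:**
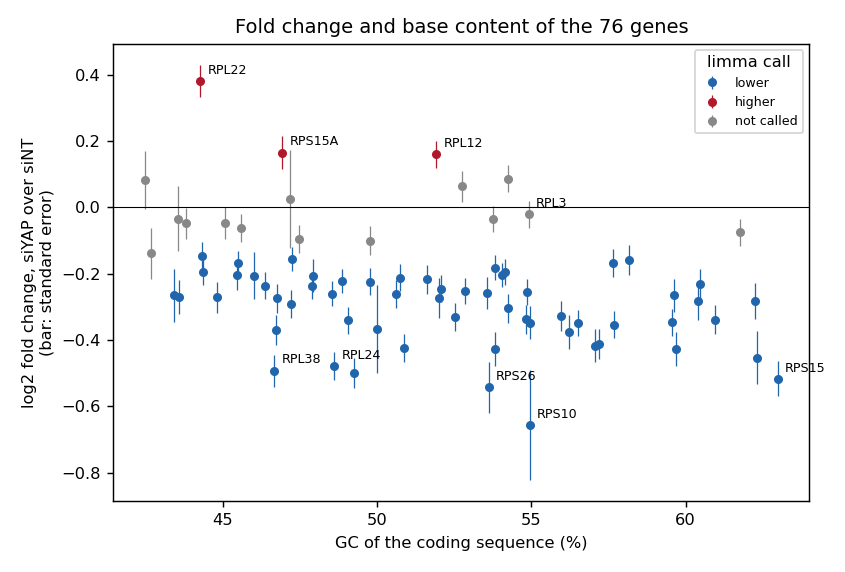
Each point is 1 of the 76 genes, with the GC percentage of its coding sequence on the horizontal axis and its log2 fold change, siYAP over siNT, with its standard error, on the vertical axis. Colours give the limma call. The genes called higher lie at a GC under 52%, and RPS15, with the highest GC, is at −0.52.

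The 76 genes lie on 21 chromosomes, and no cluster holds them together. Chromosome 19, with 12, has the most, and all 12 were called lower (28.1% of all genes tested were), with a median log2 fold change of −0.32. RPS16 and RPL18 are among these 12. RPS16 had 25499, 28457 and 27855 normalized counts in siNT and 21694, 20689.9 and 18887 in siYAP, at −0.42 (SE 0.049), and RPL18 was at −0.35 (SE 0.041). The 46 genes with the pyrimidine run at the start had a median of −0.23 and the 16 without it −0.26, a difference that was not tested.

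Within each group many of these genes had the same library at the top or at the bottom. In siYAP, replicate 1 held the highest value of its group for 57 of the 76 genes and replicate 3 the lowest for 59, where over all genes tested the shares were 37.3% and 36.1%. In siNT, replicate 1 held the lowest value for 48 and replicate 2 the highest for 46, against 40.1% and 33.9% of all genes tested. The median log2 ratio of siYAP replicate 1 to replicate 3 was 0.092 over the 76 genes and 0.0052 over the 11952 tested genes with at least 50 in every library. Over the 76 genes this ratio had a Spearman correlation of −0.64 with the log2 fold change. The 2 quantities share the siYAP libraries, and the part of these libraries in the fold changes was not tested. Within groups the coefficient of variation had a median of 3.90% and ran from 0.797% (RPL34) to 17.0% (RPL36A).

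The 3 genes with the widest relative spread within groups were RPL36A, RPS27 and RPL39, all with low counts. RPS27, a zinc-binding 40S protein, had 129.8, 158 and 129 normalized counts in siNT and 109, 122 and 92.3 in siYAP. Its log2 fold change of −0.37 (SE 0.13) was called, but not without siNT replicate 2 (−0.27), without siYAP replicate 3 (−0.26), with DESeq2, with equal totals or without the trend. RPS27 is 1 of the 9 genes whose coding words are all shared.

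The L-suffix paralogs were compared with their namesakes gene by gene. Of the 6 listed, 4 fell, none rose and 2 were not called. RPL22L1, whose level the RPL22 protein is known to limit, had 839.8, 729 and 734 normalized counts in siNT and 819, 910.0 and 822 in siYAP. Its log2 fold change was 0.15 (SE 0.067) and was not called, beside 0.38 for RPL22, but was called higher without siNT replicate 1 (0.22). RPL39L had 197, 229.8 and 196 normalized counts in siNT and 131, 142 and 136 in siYAP, at −0.60 (SE 0.11), beside 0.083 for RPL39. RPL26L1 was at −0.28 (SE 0.074) beside −0.047 for RPL26, and RPL36AL at −0.26 (SE 0.046) beside 0.025 for RPL36A. In these 3 pairs the paralog fell and the member was not called, although the difference within a pair was not tested. All coding words of RPL39 and RPL36A and 82.1% of those of RPL26 are shared with other annotated genes. The values of these members are therefore uncertain, and RPL36A also has low counts and a wide standard error. RPL7L1 was at −0.12 (SE 0.044) beside −0.27 for RPL7, with no call without siNT replicate 3, siYAP replicate 1 or siYAP replicate 2 (−0.11, −0.11 and −0.12). In the last pair RPS27L, not called, was at 0.037 (SE 0.051) beside −0.37 for RPS27.

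Other genes of the translation machinery are given by lists that were drawn up with earlier results of these data known. The lists overlap. Several initiation and elongation factors, such as EEF1A1, are also in the list of other TOP mRNAs and are counted in both. Beside the counts of each list, 28.1% of all genes tested were called lower and 28.6% higher. Of 16 mRNAs from a list of other TOP mRNAs, 11 fell, 1 rose and 4 were not called, with a median log2 fold change of −0.18. The promoter table held 11 genes of this list, and 9 of these had a pyrimidine run at an annotated start. For the rest of the list the start was not checked. VIM, the gene of vimentin, fell most in this list, at −0.89 (SE 0.038). BTF3 and NACA, partners in the nascent polypeptide-associated complex, were at −0.33 (SE 0.042) and −0.30 (SE 0.041). EEF1A1, which brings aminoacyl-tRNA to the ribosome, had 14872, 13737 and 14193 normalized counts in siNT and 14186, 14219 and 14522 in siYAP, at 0.0049 (SE 0.041), and TPT1 was at 0.027 (SE 0.037). PABPC1, the poly(A)-binding protein, rose, at 0.11 (SE 0.036). The mRNAs of this list thus ranged from a fall in VIM to a rise in PABPC1.

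Of the 13 non-coding genes that host snoRNAs in their introns, 12 fell (28.1% of all genes tested did) and 1 was not called, with a median of −0.34. The promoter table held 11 of them, with a pyrimidine run at an annotated start in 4 and within 10 bases in 8. SNHG32 was at −0.78 (SE 0.048), SNHG15 at −0.52 (SE 0.054), ZFAS1 at −0.44 (SE 0.045) and GAS5 at −0.26 (SE 0.048). SNHG16, the exception, was at −0.017 (SE 0.050).

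Of 34 translation initiation factors 24 fell, 1 rose and 9 were not called, with a median of −0.24. EIF4H, which helps the helicase EIF4A, had 9729.9, 10106 and 10464 normalized counts in siNT and 5683, 5427 and 5503 in siYAP, at −0.87 (SE 0.043). EIF4G2 was at −0.76 (SE 0.037) and EIF3J at −0.68 (SE 0.049). EIF4A2, a form of the helicase itself, rose, at 0.44 (SE 0.055). Of 10 elongation and release factors 5 fell, 2 rose and 3 were not called, with EIF5A at −0.66 (SE 0.047) and its paralog EIF5A2 at 1.25 (SE 0.078).

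Of 12 chaperones and importers of ribosomal proteins 7 fell, 1 rose and 4 were not called, with a median of −0.19. GRWD1, a chaperone of RPL3, was at −0.43 (SE 0.046) and the importer KPNB1 at −0.39 (SE 0.039). TNPO1, another importer, rose, at 0.53 (SE 0.051). Of 44 ribosome biogenesis genes 37 fell and 2 rose, with a median of −0.27, and RRS1 was at −0.79 (SE 0.047) while HEATR1 rose, at 0.85 (SE 0.050). Of the 75 mitochondrial ribosomal protein genes, whose products form a separate ribosome, 48 fell and 5 rose, with a median of −0.18. Among these MRPS6 was at −0.83 (SE 0.056), MRPS16 at −0.53 (SE 0.045) and MRPL50, which rose, at 0.83 (SE 0.068).

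The mTORC1 pathway controls the translation of TOP mRNAs. A list of its genes and outputs was not limited to the pathway, as it also holds MYC, MYCN, MAX and MXD1. Of the 26 genes of that list tested, 8 were lower, 8 higher and 10 not called, with a median of 0.022. Over all genes tested 28.1% were called lower and 28.6% higher. EIF4EBP1, a repressor of cap-dependent translation that mTORC1 inactivates, had 2381, 2805 and 2758 normalized counts in siNT and 973, 963 and 886 in siYAP, at −1.49 (SE 0.061). SESN3, a sestrin that restrains mTORC1, had 385, 385 and 336 normalized counts in siNT and 1284, 1319.6 and 1491 in siYAP, at 1.89 (SE 0.072). RPTOR, the scaffold of the complex, fell, at −0.55 (SE 0.052), and AKT1S1, an inhibitor in the complex, fell too, at −0.56 (SE 0.047). MTOR was at 0.11 (SE 0.045), called higher, and LARP1, which binds the TOP cap, at −0.11 (SE 0.040), called lower. MYC, a known activator of ribosomal genes, had 308, 321 and 343 normalized counts in siNT and 355, 348 and 354 in siYAP, at 0.12 (SE 0.079), and was not called. MYCN was near the floor, with means of 1.81 ± 1.16 in siNT and 19.4 ± 3.69 in siYAP (SD, n = 3 each), and was called higher, at 2.92 (SE 0.44). Translation itself, mTORC1 activity and the levels of the proteins were not measured.

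Of 139 listed pseudogenes of ribosomal proteins 20 were called lower (28.1% of all genes tested were), 5 higher (28.6%) and 114 not called, with a median log2 fold change of −0.19. Together they made up 0.0577% to 0.0684% of a library. For 54 of the 76 genes at least 1 pseudogene was listed.

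**Figure D5:**
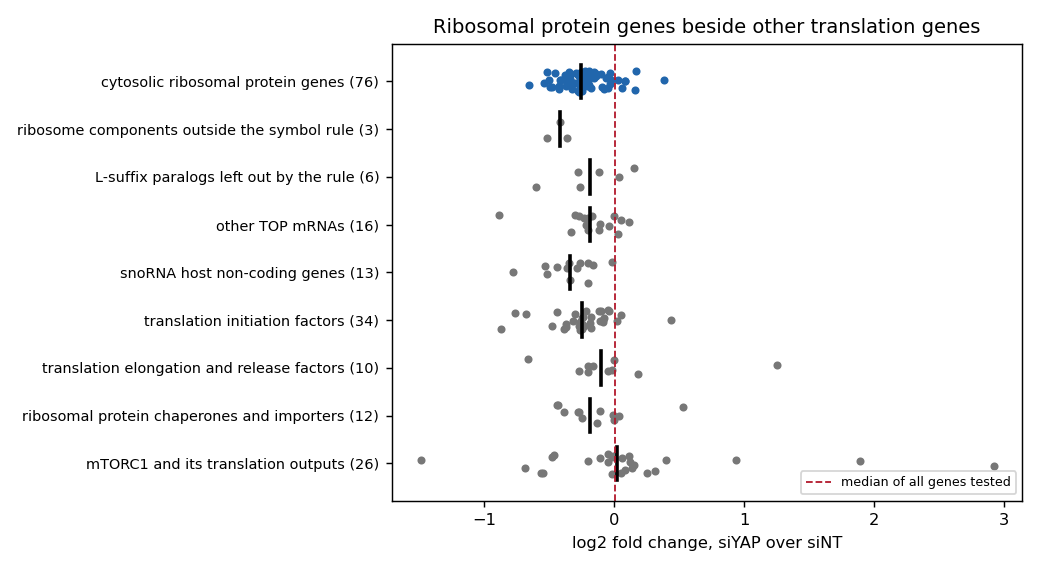
Each point is a gene at its log2 fold change, siYAP over siNT (horizontal axis), in rows by list, with the number of genes tested in parentheses and a black bar at the list's median. The dashed line is the median of all genes tested. The 76 cytosolic ribosomal protein genes (blue) have a median of −0.25 and a narrower range than the mTORC1 list. That list, which is not limited to the pathway, runs from −1.49 (EIF4EBP1) to 2.92 (MYCN, near the floor).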

How the data were processed

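RNA-seq of 6 libraries of 1 cell line was analysed, 3 siNT and 3 siYAP, grouped by their titles. Libraries were stranded poly(A) libraries, per the labels' protocols. The deposited table gives a signal per gene and library, which is a read count divided by a size factor: 100% of values were whole multiples of 1 read within 0.01 of a read. The submitters' processing notes name FastQC, HISAT2, HTSeq and DESeq2, and the builds hg19 and mm9. Their versions and roles, the annotation, the strand setting and the handling of reads with several matches were not given in the sources used.

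Since the values were normalized, limma 3.58.1 in R 4.3.3 (trend, robust) took the place of edgeR. It was fitted on log2(value + 1) with group as the only term, for 17200 of 17211 genes, those that reached 1 in at least 3 libraries. P-values were adjusted by Benjamini-Hochberg over all genes and called under 0.05. Fold changes of low genes are understated on this scale. The spread is that between libraries of a single line. With 3 against 3, an exact permutation test reaches no p under 0.1, so none was run. As alternatives, edgeR 4.0.16 on the recovered reads (quasi-likelihood, TMM) called 4923 genes higher and 4659 lower of 15659, and DESeq2 1.42.0 called 4393 higher and 4385 lower. The fit was tested on simulated data.

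The members and gene lists were chosen with earlier results of these data known. Named were YAP1, the 8 lowest and up to 8 highest called members, the 4 nearest to 0, the 4 highest and 4 lowest levels, the 3 widest spreads, structural sets, paralogs with their partner and up to 3 genes per list by smallest p. RNF207, the RPL22 pseudogenes, NBEAL1, RPL15, RPL19, RPL35, RPS3A, RPL23A, RPL31, RPL34, RPS16 and RPL18 were added after their values were seen. So were EEF1A1, TPT1, PABPC1, GAS5, SNHG16, EIF4A2, RPTOR, MTOR, LARP1, MYC and MYCN. Levels are per kilobase of coding sequence, not of exon as planned, since extended isoforms distort exon lengths. Symbols (16743 of 17211), coordinates and coding sequences come from a table of human names and GENCODE 29 on GRCh38, matched by Ensembl identifier, since the deposited table carries no coordinates. Start sequences are RefSeq's on GRCh38.p14. A few genes are counted in the totals but are not reported here by name.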

Additional observations from a re-analysis of the deposited data

How the results depend on the processing

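The falls in most of the genes were seen under each of the 16 alternative fits, and the values nearest to 0 changed sign. Of the 59 genes called lower 51 kept that call under all 16, of the 3 called higher all 3, and of the 14 not called 9. With equal totals the median log2 fold change was −0.167, with 5 genes called higher, and RPS2 (0.012), RPL34 (0.026), RPS27A (0.039), RPL7A (0.051), RPL26 (0.040), RPL3 (0.066) and RPL21 (0.053) turned positive without a call, as that scaling raises the median of all genes to 0.090. Leaving out each library in turn gave 57 to 61 genes lower, 3 to 5 higher and a median of −0.265 to −0.216. In those fits 25.5% to 28.4% of all genes tested were called lower and 25.5% to 28.8% higher. Over the same left-out libraries RPL26 ran from −0.092 to 0.009 and RPL21 from −0.104 to 0.005, positive without siNT replicate 1. RPL3 ran from −0.054 to 0.008, positive without siNT replicate 2, and RPL36A from −0.122 to 0.188, negative without siNT replicate 2 or siYAP replicate 2 (−0.054). None of these 4 was called in any of those fits, and the cause was not tested. Without the 36 genes that overlap another listed gene, 31 of 40 were lower and 2 higher. Without the 54 that have a listed pseudogene, 20 of 22 were lower and 1 higher. Without those that share 50% or more of their coding words, an alternative chosen after seeing the data, 35 of 38 were lower and 0 higher by limma. In these 3 subsets fewer genes were counted by construction, and 28.1% of all genes tested were called lower by the main fit. With the replicate number as a block (replicate block), 59 were lower and 3 higher with a median of −0.254, and 9141 of all genes were called against 9767. Deviations of same-numbered libraries correlated at −0.053, −0.006 and 0.001, and those of differently numbered libraries at −0.052 to 0.057. No shared effect of the number was seen, which cannot tell whether the libraries were paired in the experiment. RPS10, RPL36A, RPS27 and RPL21 had the lowest counts of the 76 genes and the widest standard errors, and the part of depth in their values was not tested.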
